A study of Mus musculus with 30 samples.

Results

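RNAseq of cultured mouse cells was used to follow what happened when Nr6a1-/- cells were kept for 24 h more in the same medium, from d3 to d4. These were chosen by their labels: 6 of the 30 libraries of the series, 3 replicates at d3 and 3 at d4. All 6 came from the Bruce4 embryonic stem cell (ESC) line with CRISPR/Cas9 deletions in both alleles of Nr6a1, and all had received FGF2 from the start of differentiation and the Wnt agonist CHIR99021 from d2. At d3 the cells had thus been in FGF2 with CHIR99021 for 24 h, and the d4 cells had 24 h more of both, without the growth factor Gdf11. The wildtype Bruce4 libraries of the same days and treatment, 3 at d3 and 3 at d4, served to show where the Nr6a1-/- change differed. The Nr6a1-/- cells were 1 clone, so that genotype and clone cannot be told apart.

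Nr6a1, also called germ cell nuclear factor, is an orphan nuclear receptor that binds direct repeats of the nuclear receptor half-site and is known to repress Pou5f1 as the early embryo leaves pluripotency. FGF and Wnt signals together move such cultures from epiblast towards neuromesodermal progenitors (NMPs), the tail-end cells of the embryo that carry both the mesodermal factor T (Brachyury) and the neural factor Sox2. NMPs leave this state either as presomitic mesoderm, marked by Tbx6 and segmented under the Notch clock, or as spinal cord, and retinoic acid made by Aldh1a2 in the mesoderm opposes FGF as they do so. Hox genes come on in the order of their position in the clusters, from anterior (paralogue groups 1 to 5) over trunk (6 to 9) to posterior (10 to 13).

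The 6 libraries held 2101598 to 2618133 counts, with 18079 to 19436 genes detected in each. Values are given in CPM, counts scaled to the library total with TMM factors. A count of 0 in a library allowed up to 1.15 to 1.43 CPM, which like the intervals of pooled counts below covers counting error only. Correlations of log2 CPM were 0.978 to 0.980 among the d3 libraries, 0.973 to 0.978 among the d4 libraries and 0.933 to 0.942 between days. Replicate 1 at d4 was the least like its group: its counts differed from those of replicates 2 and 3 with a chi-square per gene of 5.86 and 7.003, against 2.65 between those 2 libraries. Among the wildtype libraries, d4 replicate 2 stood apart, with 1096 CPM summed over 23 pluripotency and epiblast genes against 292 and 333 CPM in the others. The labels do not say that replicates were separate cultures, so the tests measure the spread between these libraries, which may be technical. Per the paper's methods, samples were indexed at priming and then pooled. By the labels, which name no pool, the d3 and d4 Nr6a1-/- libraries of replicates 2 and 3 share an index. If the labelled indices are right, those days were in different pools, and day and pool cannot be told apart there. In bulk RNA, fewer cells of a type and less RNA per cell cannot be told apart.

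The labelled cell type was checked first. Summed over 8 NMP markers, which include T, Sox2, Nkx1-2 and 3 Cdx genes, the d3 libraries stood at 1451 to 1653 CPM and the d4 libraries at 810 to 951 CPM. The 6 presomitic markers, with Tbx6 and Hes7 among them, stood at 181 to 204 CPM at d3 and 763 to 785 CPM at d4. Markers of lateral mesoderm and blood vessel (5 genes, 1.70 to 3.90 CPM in all 6 libraries) and of endoderm (5 genes, 1.86 to 6.29 CPM, with Cer1 at 0 throughout) stayed near the counting limit. Neural crest markers summed to 0.855 to 2.01 CPM at d3 and 3.90 to 4.84 CPM at d4. The counts of Nr6a1 do not check the genotype, since these libraries read the 3′ end while the deletions lie in an internal exon. Nr6a1 (chromosome 2) stood at 292, 256 and 314 CPM at d3 and 189, 224 and 255 CPM at d4 in Nr6a1-/- cells (log2 fold change -0.37, SE 0.11, FDR = 0.00954), a call lost without d4 replicate 1 (FDR = 0.0632).

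Between d3 and d4, 1648 of 12149 tested genes were higher at d4 in Nr6a1-/- cells and 1496 were lower (edgeR quasi-likelihood test, Benjamini-Hochberg FDR below 0.05), which is 13.6% and 12.3% of the genes tested. Of these, 544 genes rose and 670 fell by at least 2-fold, and 82 rose and 48 fell by at least 8-fold. The median log2 fold change over all tested genes was 0.0028. Counts and medians of the lists below are to be read beside the shares of 13.6% and 12.3% and this median. The share of calls that were higher was 52.4%, and 40.2% (1272 higher, 1895 lower) when the libraries were scaled by their totals alone, which moved the median of all genes to -0.07. In wildtype cells over the same 24 h, 1187 genes rose (9.77%) and 1373 fell (11.3%). In total 1299 genes changed in the same direction in both genotypes, 41.3% of the calls in Nr6a1-/- cells and 50.7% of those in wildtype cells, and 60 changed in opposite directions.

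The difference between the genotypes in the change from d3 to d4 was tested itself. It was called for 695 genes, 361 with a change that was more positive in Nr6a1-/- cells (2.97% of tested genes) and 334 with one that was more negative (2.75%). This count rested on single libraries: it was 1157 (451 more positive, 706 more negative) without d4 Nr6a1-/- replicate 1 and 443 without d4 Nr6a1-/- replicate 3. The genes named below for such a difference kept their call with each of the 12 libraries of the comparison left out in turn, except where a library is named beside them.

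**Figure D1:**
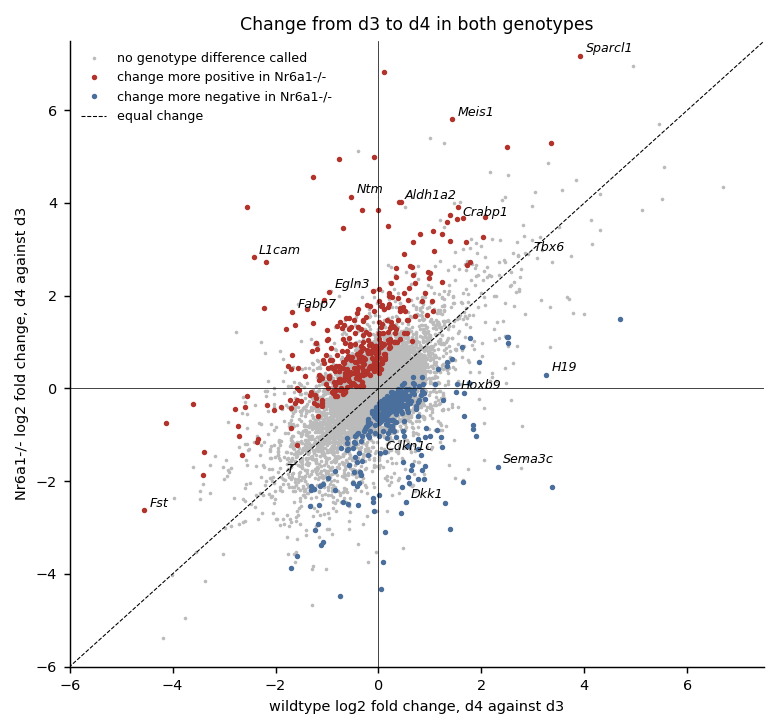
Each point is 1 of 12084 genes, plotted by its log2 fold change from d3 to d4 in wildtype cells (x axis) and in Nr6a1-/- cells (y axis); coloured points are genes whose change differed between the genotypes at FDR below 0.05. Aldh1a2 lies at 0.40 on the x axis and 4.02 on the y axis, while T lies at -1.89 and -1.91.

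Among called genes of at least 10 CPM, the largest fold change was that of Meox1, a homeobox factor of the somites (chromosome 11, 101877510 to 101894374 of GRCm38, minus strand). It stood at 0.402, 0 and 0 CPM at d3 and 226, 169 and 209 CPM at d4, a ratio of pooled counts of 1523 with an exact 95% interval of 273 to 60201 (log2 fold change 10.09, SE 0.34, FDR = 7.16e-21). It was near 0 at all earlier stages of these cells (0.126 CPM at d2 and 0.117 CPM at d2.5). In wildtype cells Meox1 stood at 0, 0 and 0 CPM at d3 and 5.23, 3.32 and 3.602 CPM at d4, and since it had no wildtype count at d3 the genotype difference had an SE of 20.71 in edgeR (FDR = 0.954). limma-trend, a test on log2 CPM with a prior count that was added after the data were seen, put that difference at 5.19 (SE 0.45, FDR = 1.59e-09).

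Of the 12 largest rises 3 more are transcription factors. Foxc2, a forkhead factor of presomitic and somitic mesoderm, had 0 counts in all 3 d3 libraries and 17.3, 16.4 and 17.5 CPM at d4, at least 42.9-fold higher against a limit of 3 counts over the group (FDR = 1.87e-09). In wildtype cells Foxc2 rose too, from 0 counts at d3 to 9.15, 6.63 and 9.61 CPM at d4 (FDR = 5.33e-07). Its genotype difference was not called in edgeR, nor in limma-trend (0.96, SE 0.49, FDR = 0.273). Meis1, a partner of Hox proteins, stood at 0, 0 and 1.12 CPM at d3 and 29.02, 21.8 and 24.3 CPM at d4 (ratio of pooled counts 62.99 with an exact 95% interval of 21.2 to 309, FDR = 1.75e-12). Hes5, a target of Notch in neural progenitors, stood at 0.402, 2.14 and 2.23 CPM at d3 and 45.05, 74.5 and 74.6 CPM at d4 (log2 fold change 5.29, SE 0.301, FDR = 2.12e-16).

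The other protein-coding genes among the 12 largest rises encode secreted or membrane proteins. Sparcl1, a matricellular protein, stood at 0.402, 0.428 and 1.12 CPM at d3 and 142, 84.7 and 84.8 CPM at d4 (log2 fold change 7.18, SE 0.35, FDR = 5.54e-18). Wnt7a, a Wnt ligand, stood at 0, 0.428 and 0 CPM at d3 and 14.7, 20.3 and 27.7 CPM at d4, a ratio of pooled counts of 158 with an exact 95% interval of 27.8 to 6271 (FDR = 6.02e-11). At d3 Sparcl1 had 5 counts in all and Wnt7a 1. Fibcd1 had 0 counts at d3 and 11.7, 12.6 and 10.2 CPM at d4, at least 28.7-fold higher (FDR = 6.12e-08), and had 0 counts in all 6 wildtype libraries of these days. Slc38a8, an amino acid transporter, stood at 0.402, 0.428 and 0 CPM at d3 and 13.9, 12.6 and 10.7 CPM at d4 (ratio of pooled counts 46.4 with an exact 95% interval of 12.4 to 389.6, FDR = 3.92e-07). The remaining 4 of the 12 were small nuclear RNA genes (Gm24018, Gm25360, Gm25541 and Gm22063), which are given with the small RNAs below.

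The 12 largest falls held 3 genes of the Nodal pathway. Lefty1, a secreted Nodal inhibitor, stood at 57.01, 47.04 and 47.98 CPM at d3 and 4.76, 2.903 and 5.11 CPM at d4 (log2 fold change -3.54, SE 0.19, FDR = 8.98e-17). Its neighbour Lefty2 stood at 18.1, 14.97 and 10.04 CPM at d3 and 1.299, 2.42 and 0.852 CPM at d4 (log2 fold change -3.22, SE 0.42, FDR = 1.86e-07). The Nodal co-receptor Tdgf1 (Cripto) stood at 17.7, 36.3 and 23.1 CPM at d3 and 3.47, 0.968 and 2.98 CPM at d4 (log2 fold change -3.31, SE 0.38, FDR = 1.39e-08). Apela, the secreted peptide ligand of the apelin receptor, had the largest of these falls and stood at 157, 132 and 161 CPM at d3 and 11.3, 5.32 and 13.6 CPM at d4 (log2 fold change -3.87, SE 0.23, FDR = 4.36e-16).

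The other falls among the 12 were spread over several functions. Ina, a neuronal intermediate filament, went from 46.4 ± 3.96 to 3.75 ± 1.75 CPM (mean and SD, n = 3, log2 -3.62, FDR = 3.55e-13). Zscan10, a zinc finger factor of ESCs, went from 26.4 ± 1.78 to 3.12 ± 0.304 CPM (log2 -3.06, FDR = 2.08e-08). The prostaglandin synthase Ptgs1 went from 23.7 ± 0.461 to 1.91 ± 1.33 CPM (log2 -3.58, FDR = 3e-10). Sfn (stratifin), an epithelial protein, went from 13.01 ± 2.31 to 1.16 ± 0.622 CPM (log2 -3.39, FDR = 1.02e-07), and the smooth muscle calponin Cnn1 from 13.5 ± 4.95 to 0.912 ± 0.512 CPM (log2 -3.83, FDR = 1.38e-05). Mup6 (log2 -3.54, FDR = 2.32e-06), the neuronal splicing factor Rbfox3 (log2 -3.05, FDR = 4.49e-07) and Tmem59l (log2 -2.96, FDR = 2.84e-06) completed the 12. Mup6 belongs to a family of near-identical genes, so its counts are uncertain.

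**Figure D2:**
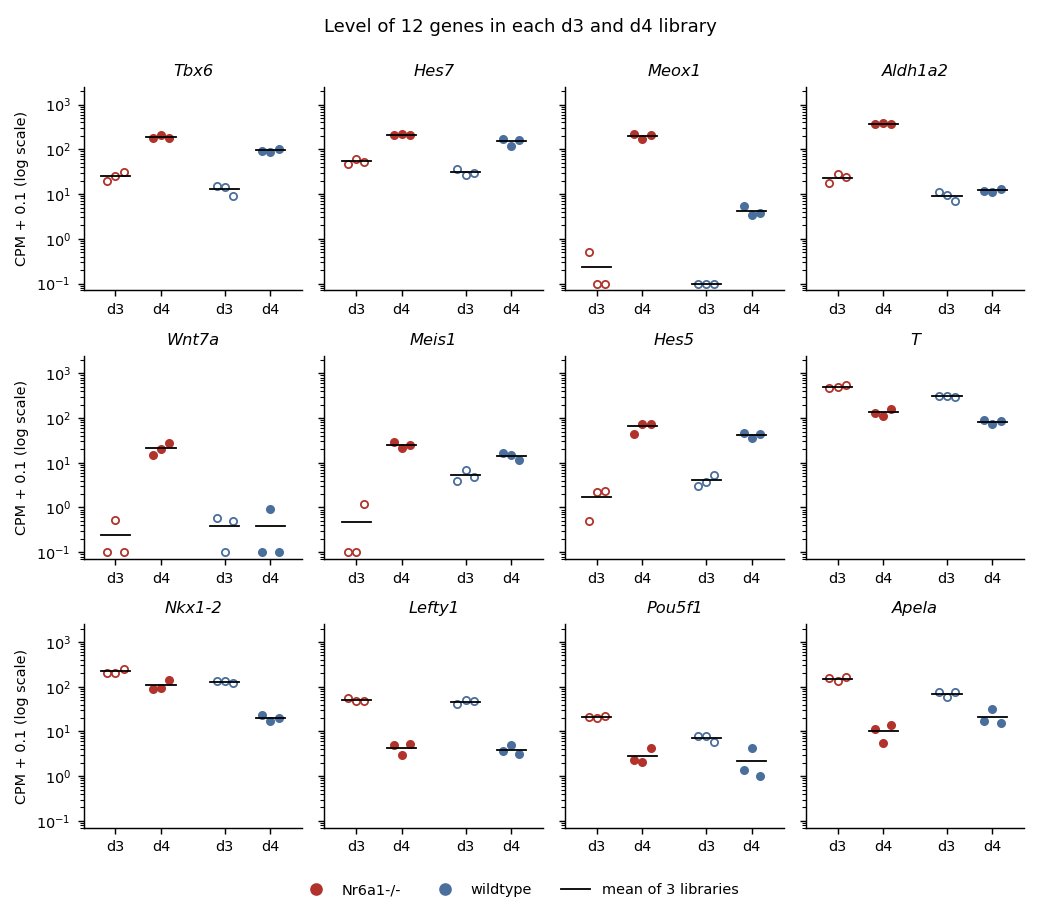
CPM plus 0.1 on a log axis for 12 genes in each of the 3 d3 (open) and 3 d4 (filled) libraries, Nr6a1-/- (red) and wildtype (blue) side by side, with lines at the means of 3 libraries. Meox1 reached 169 to 226 CPM in the d4 Nr6a1-/- libraries and 3.32 to 5.23 CPM in the d4 wildtype libraries.

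Presomitic and paraxial mesoderm genes rose together in Nr6a1-/- cells. Of 26 listed genes 18 passed the filter on low counts, which asked for 2 libraries of the same group above both 2 CPM and 10 counts. At d4 15 of the 18 were higher and none lower (13 to 15 with 1 library left out). Over all tested genes 13.6% were higher and 12.3% lower. A gene could pass this filter through 1 group where it was high. Foxc2, Mesp1 and Mesp2 had 0, 2 and 2 counts at d3, so the count and the median are partly set by the filter. Their median log2 fold change was 2.36, against 0.0028 over all tested genes. Meox1 and Foxc2 are members, and so are Aldh1a2 and 4 Notch genes given further on. Tbx6, the T-box factor that commits cells to presomitic mesoderm (chromosome 7, 126781483 to 126785560, plus strand), stood at 19.7, 25.7 and 31.2 CPM at d3 and 179.8, 211 and 181 CPM at d4 (log2 fold change 2.89, SE 0.14, FDR = 1.51e-18). In wildtype cells it stood at 15.4, 14.3 and 9.2 CPM at d3 and 94.2, 88.97 and 104 CPM at d4 (log2 2.899, FDR = 2.33e-16), lower on both days. Foxc1, which acts with Foxc2, stood at 5.22, 2.57 and 2.23 CPM at d3 and 33.4, 42.1 and 37.9 CPM at d4 (log2 fold change 3.48, SE 0.29, FDR = 1.1e-11). Mesp1 and Mesp2 are factors of the segmental boundary. Mesp1 stood at 0.803, 0 and 0 CPM at d3 and 15.2, 6.29 and 7.67 CPM at d4 (ratio of pooled counts 36.9 with an exact 95% interval of 9.82 to 311, FDR = 1.19e-06). Mesp2 stood at 0.402, 0.428 and 0 CPM at d3 and 5.63, 3.39 and 5.11 CPM at d4 (ratio of pooled counts 17.9 with an exact 95% interval of 4.56 to 154, FDR = 6.19e-05). Both were under 2 CPM in every wildtype library of these days. Msgn1, the defining presomitic factor, did not pass the filter, with 26 counts over the 3 d3 libraries and 15 over the 3 d4 libraries.

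Other genes of the list moved less. Cited1, a transcriptional co-regulator, went from 173 to 369.9 CPM (log2 1.096, FDR = 4.05e-10). The PDGF receptor Pdgfra went from 5.47 to 12.9 CPM (log2 1.21, FDR = 0.00284). The Wnt enhancer Rspo3 went from 104 to 154 CPM (log2 0.57, FDR = 0.00061). Tcf15 (Paraxis), a factor of the somite epithelium, stood at 4.42, 4.704 and 4.46 CPM at d3 and 16.5, 5.81 and 8.095 CPM at d4 (log2 1.17, FDR = 0.017). Its rise rested on d4 replicate 1, the library with the highest value, and was lost without it (FDR = 0.281). Snai1 (9.29 to 14.8 CPM, FDR = 0.0777), Fgf18 and Pcdh8 did not pass the test. Summed over the 18 genes the level was 467 to 523 CPM at d3 and 1899 to 1938 CPM at d4, 3.89 times as much. In wildtype cells it rose 3.296 times, and 12 of the 18 genes were called higher.

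The Notch genes that oscillate in presomitic mesoderm were part of this rise. Dll1, the Notch ligand, stood at 29.3, 38.5 and 31.6 CPM at d3 and 193, 220.1 and 241 CPM at d4 (log2 fold change 2.72, SE 0.15, FDR = 1.04e-16). Hes7, the repressor at the core of the mouse clock, stood at 46.98, 61.6 and 52.1 CPM at d3 and 209, 221 and 210.0 CPM at d4 (log2 fold change 1.996, SE 0.13, FDR = 1.41e-14). Lfng, the glycosyltransferase that modifies Notch, stood at 3.21, 2.57 and 4.09 CPM at d3 and 22.5, 21.8 and 24.3 CPM at d4 (log2 fold change 2.77, SE 0.33, FDR = 4.22e-08). None of these overlapped between days. Of 18 Notch and clock genes tested (21 listed) 8 rose and 3 fell, with a median log2 fold change of 0.60. Hey1, a further Notch target, went from 2.87 to 11.1 CPM (log2 1.896, FDR = 0.000244). The receptor Notch1 went from 5.801 to 13.1 CPM (log2 1.16, FDR = 0.00637), a call lost without d3 replicate 2 (FDR = 0.0562). Dll3, a ligand that dampens Notch, rose least of the group (51.5 to 69.2 CPM, log2 0.43, FDR = 0.0225), a call lost without any d3 replicate (FDR = 0.0521 to 0.075) or without d4 replicate 3 (FDR = 0.201). Hes1 (127 to 109 CPM, FDR = 0.116), Hes6 and Jag1 did not pass the test, though Hes1 was called lower without d4 replicate 1 (FDR = 0.0134). The 3 that fell were Hes3, Jag2 and the fringe Mfng, and each of these calls was lost without at least 1 library: Hes3 without replicate 3 of either day, Jag2 without d3 replicate 3 or d4 replicates 1 or 3, and Mfng without d3 replicate 1 or d4 replicates 2 or 3 (FDR = 0.0602 to 0.172). No fall was called without d4 replicate 3 and 1 without d3 replicate 3.

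RBPJ, the DNA-binding partner of Notch, recognises GTGGGAA, and promoters of 3 of these genes hold this motif. They are shown because they hold the motif and the 3 genes rose. Dll1, which rose as well, has a window without the motif. Each is the RefSeq window of 250 bases before to 50 after the gene's start in GRCm38.p6, plus strand, in lower case with matches to GTGGGAA or its reverse complement TTCCCAC in capitals. Hes5 (chr4:154960673-154960972) has matches that begin 226 and 83 bases before the start, Hes7 (chr11:69120203-69120502) 1 that begins 180 before it and Lfng (chr5:140607091-140607390) 1 that begins 109 before it.
Hes5: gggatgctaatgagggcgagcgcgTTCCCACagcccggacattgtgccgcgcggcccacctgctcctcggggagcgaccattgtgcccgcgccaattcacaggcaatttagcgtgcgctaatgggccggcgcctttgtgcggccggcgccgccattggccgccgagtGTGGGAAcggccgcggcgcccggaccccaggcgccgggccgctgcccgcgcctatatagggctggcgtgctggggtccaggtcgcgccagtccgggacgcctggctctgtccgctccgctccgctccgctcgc
Hes7: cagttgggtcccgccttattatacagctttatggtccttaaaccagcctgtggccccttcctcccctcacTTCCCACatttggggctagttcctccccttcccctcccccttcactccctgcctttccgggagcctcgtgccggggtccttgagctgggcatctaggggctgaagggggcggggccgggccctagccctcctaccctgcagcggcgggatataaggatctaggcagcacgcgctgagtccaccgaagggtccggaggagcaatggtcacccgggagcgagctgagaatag
Lfng: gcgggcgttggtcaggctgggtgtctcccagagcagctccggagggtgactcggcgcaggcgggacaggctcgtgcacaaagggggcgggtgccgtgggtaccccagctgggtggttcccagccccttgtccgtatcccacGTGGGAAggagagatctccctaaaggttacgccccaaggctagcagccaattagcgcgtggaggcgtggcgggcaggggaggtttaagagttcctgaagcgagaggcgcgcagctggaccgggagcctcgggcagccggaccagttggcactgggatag
The motif, searched on both strands, was in 6.38% of 32851 RefSeq promoter windows and in 7.16% of the 8800 tested genes that have one. It was in 4 of the 14 Notch and clock genes with a window, Hey2 being the fourth, in 6.31% of the genes called higher in Nr6a1-/- cells and in 7.03% of those called lower. Hey2 itself was not called between d3 and d4 in Nr6a1-/- cells (FDR = 0.199). A match is a description of the letters and does not show binding.

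Genes of the retinoic acid pathway rose in Nr6a1-/- cells, several of them by more than in wildtype cells. Of 14 tested (20 listed) 8 rose and 2 fell (median log2 fold change 0.799). For 5 of the 14 the change was more positive than in wildtype cells, where 4 rose and 2 fell. Over all tested genes the share with a more positive change was 2.97%. Aldh1a2, the enzyme that makes retinoic acid in trunk mesoderm (chromosome 9, 71215789 to 71296243, plus strand), stood at 17.7, 27.8 and 24.2 CPM at d3 and 369, 386 and 373 CPM at d4 (log2 fold change 4.02, SE 0.16, FDR = 7.16e-21). It was not called in wildtype cells (11.1, 9.67 and 6.8 CPM at d3 and 11.8, 11.3 and 12.9 CPM at d4, FDR = 0.301), and the genotype difference was 3.61, SE 0.34, FDR = 2.94e-09. In Nr6a1-/- cells it had stood at 0.688 CPM at d2 and 2.59 CPM at d2.5.

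Proteins that take up, bind and degrade retinoids moved with it. Crabp1, a cytosolic binding protein for retinoic acid, stood at 71.5, 60.7 and 72.2 CPM at d3 and 917, 845 and 809 CPM at d4 (log2 fold change 3.65, SE 0.1, FDR = 9.85e-26). In wildtype cells Crabp1 also rose, from a higher start (246, 234 and 228 CPM at d3 and 728, 578 and 743 CPM at d4), and the difference between the changes was 2.12, SE 0.13, FDR = 6.76e-14. Stra6, the membrane receptor for retinol uptake, stood at 14.9, 14.1 and 13.8 CPM at d3 and 58.5, 74.02 and 73.7 CPM at d4 (log2 fold change 2.27, SE 0.17, FDR = 4.7e-13), with a genotype difference of 2.03, SE 0.23, FDR = 1.76e-07. Dhrs3, a retinal reductase that limits retinoic acid synthesis, stood at 18.5, 17.96 and 14.9 CPM at d3 and 102, 147 and 133 CPM at d4 (log2 fold change 2.89, SE 0.16, FDR = 9.03e-17), with a difference of 2.39, SE 0.24, FDR = 1.63e-08. Every d4 value of these genes was above every d3 value. Crabp2, a relative of Crabp1, went from 161 ± 22.1 to 286 ± 59.4 CPM (log2 0.83, FDR = 3.74e-07). Cyp26a1, which degrades retinoic acid, stood at 10.04, 8.98 and 7.81 CPM at d3 and 20.8, 38.2 and 27.3 CPM at d4 (log2 1.67, FDR = 4.35e-07), so the degrading enzyme and the synthesising enzyme both rose.

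The retinoic acid receptors themselves did not rise as a group. Rarg fell (55.7 to 43.7 CPM, FDR = 0.0366), a call lost without any single library other than d4 replicate 2 (FDR = 0.0516 to 0.144) and with a replicate block (FDR = 0.0544). Rxrg fell (15.1 to 6.86 CPM, FDR = 0.00641), a call lost without d3 replicate 2 (FDR = 0.0762). The 2 falls of the list were 0 or 1 with any library but d4 replicate 2 left out. Rxrb rose (15.4 to 26.2 CPM, FDR = 0.00643), a call lost without d4 replicate 3 (FDR = 0.227). Rara (15.1 to 14.5 CPM, FDR = 0.89) and Rxra (9.46 to 7.79 CPM, FDR = 0.566) were not called. Nr2f2 (COUP-TFII), an orphan nuclear receptor that retinoic acid can induce, stood at 1.205, 0.428 and 1.12 CPM at d3 and 11.7, 8.22 and 6.39 CPM at d4 (log2 fold change 3.17, SE 0.48, FDR = 2.79e-06). Summed over the 14 genes the level was 398 to 433 CPM at d3 and 1816 to 1926 CPM at d4 in Nr6a1-/- cells, 4.49 times as much, and 1.92 times as much in wildtype cells. The nuclear receptor half-site AGGTCA or its reverse complement TGACCT was in the promoter window of 5 of the 12 genes of the list that have one (Rara, Rarg, Rxra, Rxrg and Stra8), 4 of them receptors, against 14.2% of tested genes with a window. None of the 5 was among the genes of the pathway that rose.

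**Figure D3:**
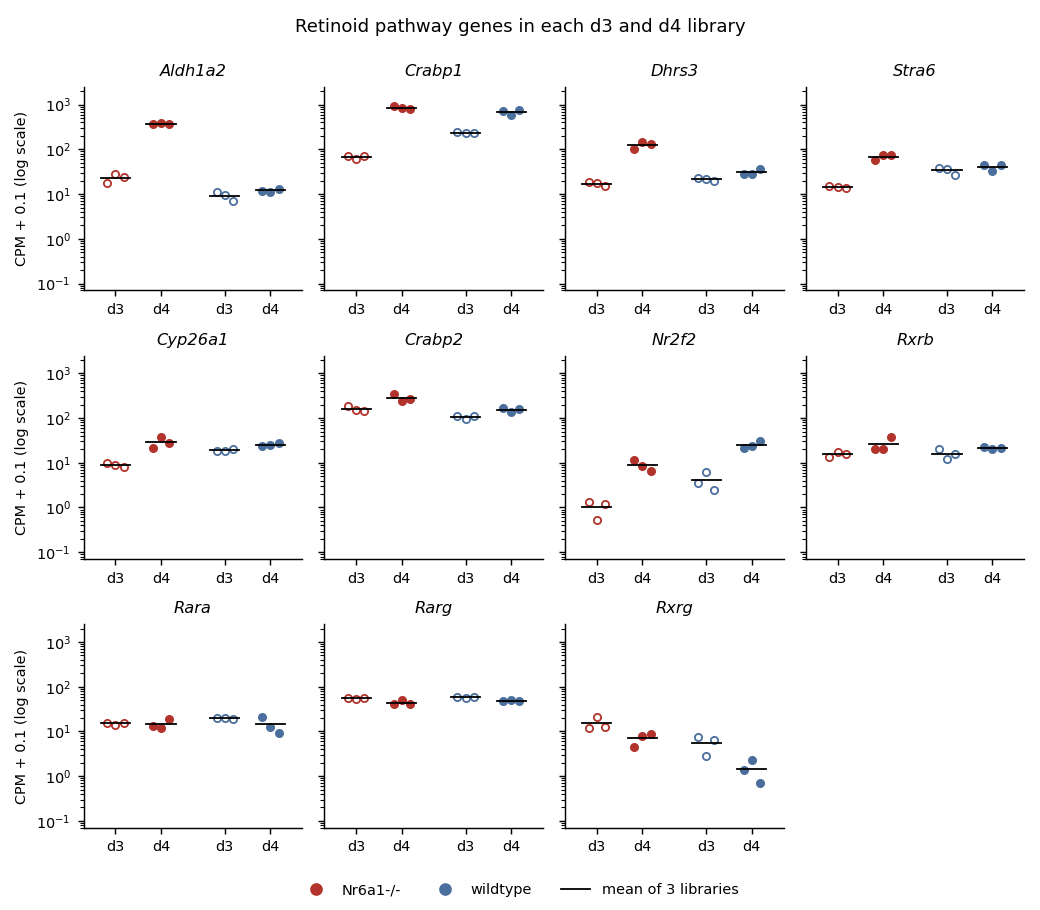
CPM plus 0.1 on a log axis for 11 retinoid pathway genes in each of the 3 d3 and 3 d4 libraries of each genotype, with lines at the means of 3 libraries. Aldh1a2 stands at 17.7 to 27.8 CPM in the d3 Nr6a1-/- libraries, 369 to 386 CPM in the d4 Nr6a1-/- libraries and 6.80 to 12.9 CPM in all 6 wildtype libraries.

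Trunk Hox genes rose in Nr6a1-/- cells, all but Hoxb8, Hoxb9 and Hoxd9 of those tested. Of 11 trunk Hox genes tested (12 listed) 8 were higher at d4 and none lower (1 without d4 replicate 3), with a median log2 fold change of 1.45, against 11 of 11 in wildtype cells (median 1.48). Hoxc9 stood at 3.61, 2.99 and 4.09 CPM at d3 and 19.5, 16.4 and 15.3 CPM at d4 (log2 fold change 2.24, SE 0.29, FDR = 1.88e-07). Hoxc8 stood at 9.64, 9.84 and 13.4 CPM at d3 and 43.3, 39.7 and 49.4 CPM at d4 (log2 fold change 2.0, SE 0.205, FDR = 1.27e-09). The largest fold change was that of Hoxd8, at 0, 0.428 and 1.86 CPM at d3 and 3.47, 10.6 and 5.54 CPM at d4 (log2 fold change 2.93, SE 0.54, FDR = 7.29e-05). Hoxa9 (2.47 to 9.16 CPM), Hoxc6 (3.64 to 11.3 CPM), Hoxa7 (6.52 to 17.9 CPM), Hoxb6 (20.5 to 40.4 CPM) and Hoxb7 (34.6 to 53.8 CPM) also rose, with log2 fold changes of 0.64 to 1.85. The summed level of the 11 was 156 to 169 CPM at d3 and 254 to 283 CPM at d4, 1.65 times as much. Wildtype cells went from 171 to 188 to 449 to 562 CPM, 2.81 times as much.

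The 5′ genes of the trunk part of the HoxB cluster set the genotypes apart. Hoxb9 (chromosome 11, 96271457 to 96276595, plus strand) stood at 28.5, 37.2 and 41.7 CPM at d3 and 30.8, 35.8 and 34.9 CPM at d4 in Nr6a1-/- cells, with overlapping days (log2 fold change -0.09, SE 0.17, FDR = 0.767). In wildtype cells it rose (32.8, 29.5 and 32 CPM at d3 and 92.4, 82.6 and 92.2 CPM at d4, log2 1.498, FDR = 1.92e-09), and the genotype difference was -1.58, SE 0.23, FDR = 1.27e-05. Hoxb8 stood at 48.6, 39.3 and 39.8 CPM at d3 and 21.2, 33.9 and 42.6 CPM at d4 in Nr6a1-/- cells (FDR = 0.151), where it was called lower without d4 replicate 3 (FDR = 0.0307), and at 28.96, 20.7 and 23.2 CPM at d3 and 47.95, 39.2 and 35.1 CPM at d4 in wildtype cells, a difference of -1.12, SE 0.28, FDR = 0.012. That difference was lost with all libraries thinned to the smallest total and in limma-trend (FDR = 0.0656 and 0.113).

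Anterior Hox genes rose as well, 9 of 12 tested (14 listed), with 1 lower and a median log2 fold change of 0.797. This count was 5 without d4 replicate 2 and 4 without d4 replicate 3. Hoxd4 stood at 3.21, 4.28 and 4.84 CPM at d3 and 24.7, 18.4 and 23.01 CPM at d4 (log2 fold change 2.41, SE 0.31, FDR = 3.01e-07). Hoxb4 stood at 25.7, 31.2 and 29.8 CPM at d3 and 71.5, 47.9 and 66.9 CPM at d4 (log2 fold change 1.11, SE 0.17, FDR = 4.3e-06). Hoxb1, the first gene of its cluster to come on, was the one that fell, at 228, 248 and 233 CPM at d3 and 165, 171 and 160.2 CPM at d4 (log2 fold change -0.52, SE 0.102, FDR = 0.000184). Posterior Hox genes were low apart from Hoxb13, which stood at 24.5, 25.2 and 27.2 CPM at d3 and 19.1, 27.1 and 18.7 CPM at d4 in Nr6a1-/- cells (FDR = 0.396) and under 1 CPM in all 6 wildtype libraries. Of 10 posterior genes tested (12 listed) 1 rose, Hoxc10 (0, 0.428 and 0.372 CPM at d3 and 0.433, 1.94 and 5.11 CPM at d4, FDR = 0.0136), a call lost without d3 replicate 1 or d4 replicate 3. The count of rises was 2 without d4 replicate 1 or 2.

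**Figure D4:**
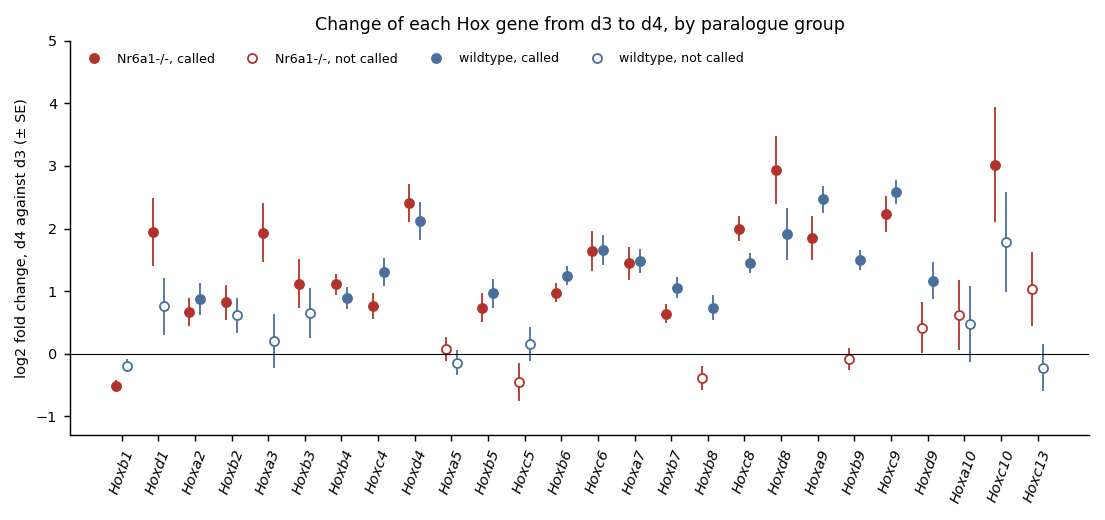
Log2 fold change from d3 to d4 of 26 Hox genes in Nr6a1-/- and wildtype cells, in order of paralogue group. Bars are 1 SE, and filled points are changes called at FDR below 0.05. Tested genes with no count in a wildtype group, or with a mean under 2 CPM in every group of these days, are not drawn. Hoxb9 stands at -0.09 in Nr6a1-/- cells and 1.498 in wildtype cells, while Hoxc9 stands at 2.24 and 2.58.

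NMP and caudal epiblast genes fell for the most part. All 26 listed genes were tested, of which 16 were lower at d4 and 5 higher, with a median log2 fold change of -0.67. With 1 library left out 12 to 16 were lower and 3 to 4 higher, the 3 without d3 replicate 2. T stood at 471, 500.3 and 541 CPM at d3 and 132, 111 and 159.8 CPM at d4 (log2 fold change -1.91, SE 0.1, FDR = 3.18e-17). Over the stages of these cells its mean had gone from 2.79 CPM at d2 to 227 CPM at d2.5 and 504 CPM at d3. Sox2 stood at 67.1, 77.4 and 81.1 CPM at d3 and 33.4, 38.2 and 46.01 CPM at d4 (log2 fold change -0.94, SE 0.15, FDR = 7.86e-06), so that both defining factors fell. Nkx1-2, a homeobox factor of the NMP region, stood at 204, 202 and 254 CPM at d3 and 89.2, 93.4 and 141 CPM at d4 (log2 fold change -1.03, SE 0.14, FDR = 6.8e-07). It fell further in wildtype cells (133, 134 and 120.4 CPM at d3 and 23.5, 16.9 and 19.8 CPM at d4), with a genotype difference of 1.68, SE 0.23, FDR = 4.72e-06. Mixl1, a homeobox factor of the primitive streak, stood at 163, 223 and 218 CPM at d3 and 75.4, 163 and 109 CPM at d4 (log2 -0.802, FDR = 0.000616), and at 151, 148 and 166 CPM at d3 and 17, 27.9 and 23.1 CPM at d4 in wildtype cells, a difference of 1.93, SE 0.27, FDR = 9.51e-06.

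The caudal factors did not fall alike. Cdx4 stood at 121, 92.4 and 103 CPM at d3 and 55.9, 49.8 and 48.1 CPM at d4 (log2 fold change -1.04, SE 0.11, FDR = 4.1e-09). Evx1, a homeobox factor of the posterior streak, stood at 39.3, 38.1 and 48.4 CPM at d3 and 8.66, 14.5 and 19.2 CPM at d4 (log2 fold change -1.57, SE 0.21, FDR = 2.54e-07). Cdx1 (381 to 343 CPM, FDR = 0.323) was not called, and Cdx2 (115 to 90.5 CPM, FDR = 0.0294) lost its call in 7 of 15 alternatives (FDR = 0.00988 to 0.145). The Wnt ligands of the region stood at 44.5 to 32.1 CPM for Wnt3a (FDR = 0.0678) and 26.2 to 15.7 CPM for Wnt8a (FDR = 0.0228). Wnt3a was called lower with no normalization factors (FDR = 0.0352), with only the compared libraries fitted (FDR = 0.0248) and with a replicate block (FDR = 0.0177). The call of Wnt8a was lost without d3 replicate 3, d4 replicate 2 or d4 replicate 3. The 5 genes that rose were Fgf3, Fgf4, Fgf17, Wnt5a and Cyp26a1. The call of Fgf17 was lost without any of 5 single libraries (FDR = 0.0526 to 0.106) and with a replicate block (FDR = 0.0618), and that of Wnt5a without d3 replicate 2 (FDR = 0.0974) or d4 replicate 1 (FDR = 0.25). Fgf3 went from 8.43 ± 1.19 to 56.3 ± 7.99 CPM (log2 2.74, FDR = 4.05e-14) and Wnt5a from 60.9 ± 7.57 to 87.6 ± 23.9 CPM (log2 0.52, FDR = 0.0149).

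Neural progenitor genes gave a mixed picture, with 7 of 18 tested (25 listed) higher and 3 lower, and a median log2 fold change of 0.30. Beside Hes5, the inhibitor of differentiation Id2 stood at 4.82, 3.85 and 4.09 CPM at d3 and 77.5, 56.1 and 60.1 CPM at d4 (log2 fold change 3.91, SE 0.205, FDR = 2.9e-17). Zic1, a zinc finger factor of the dorsal neural tube and somites, stood at 0.803, 0.428 and 0.372 CPM at d3 and 2.599, 3.87 and 4.26 CPM at d4 (log2 fold change 2.63, SE 0.58, FDR = 0.000623). Foxb1, a forkhead factor of the neural tube, stood at 61.03, 61.1 and 52.8 CPM at d3 and 231, 155 and 144 CPM at d4 (log2 fold change 1.6, SE 0.14, FDR = 3.56e-11). Fabp7, the fatty acid binding protein of radial glia, stood at 27.3, 27.4 and 25.7 CPM at d3 and 108, 81.3 and 63.5 CPM at d4 (log2 fold change 1.65, SE 0.18, FDR = 3.29e-09). It fell in wildtype cells (14, 18.4 and 10.8 CPM at d3 and 2.62, 4.14 and 6.004 CPM at d4), a genotype difference of 3.34, SE 0.35, FDR = 1.98e-08. The defining factors of the neural tube stood near the counting limit on both days. Sox1 had 0.803, 0 and 0.744 CPM at d3 and 0.433, 0.484 and 0.426 CPM at d4 (FDR = 0.899). Pax6 had 1.61, 1.28 and 2.23 CPM at d3 and 1.299, 1.94 and 2.56 CPM at d4 (FDR = 0.872). Neither was called. Irx3 fell from 3.82 to 0.912 CPM (log2 -2.05, FDR = 0.00465), and Olig2, with 0.803, 1.71 and 1.49 CPM at d3 and 0, 0 and 0 CPM at d4, was called lower, by at least 2.98-fold against a limit of 3 counts over the group (FDR = 0.00416).

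Genes of differentiated neurons fell, 9 of 11 tested (16 listed) and none higher, with a median log2 fold change of -1.61. Stmn2, a tubulin-binding protein of growing axons, stood at 188, 177 and 173 CPM at d3 and 53.7, 31.4 and 29.8 CPM at d4 (log2 fold change -2.22, SE 0.17, FDR = 6.36e-13). The neurofilament Nefm stood at 23.7, 30.4 and 29.4 CPM at d3 and 6.497, 6.29 and 3.41 CPM at d4 (log2 fold change -2.36, SE 0.25, FDR = 3.58e-09). Nefl, Stmn3, Elavl3, Elavl2 and Chga fell with log2 changes of -2.31 to -0.93. Tubb3 went from 20.2 to 11.6 CPM (FDR = 0.0317), a call lost without d3 replicate 2, d3 replicate 3 or d4 replicate 2. The summed level of the 11 genes was 366 to 387 CPM at d3 and 86.6 to 115 CPM at d4. The fall of Ina was steeper than in wildtype cells (27.03, 27.2 and 31.6 CPM at d3 and 6.97, 15.7 and 4.803 CPM at d4), by -2.04, SE 0.39, FDR = 0.000773.

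Pluripotency and epiblast genes fell in Nr6a1-/- cells, from a summed level of 643 to 651 CPM at d3 to 210 to 224 CPM at d4. All 23 were tested, of which 17 were lower (13 to 16 with 1 library left out) and none higher (1 without d4 replicate 1). The median log2 fold change was -1.58 (-1.54 without Otx2, which had 3 or fewer counts on each day). Pou5f1 (Oct4), the known target of Nr6a1, stood at 20.5, 19.7 and 21.9 CPM at d3 and 2.17, 1.94 and 4.26 CPM at d4 (log2 fold change -2.85, SE 0.33, FDR = 1.46e-08). At earlier stages of these cells it stood at 23.95 CPM at d2 and 25.1 CPM at d2.5. In wildtype cells the means were 19.1 CPM (d2), 14.2 CPM (d2.5), 7.05 CPM (d3) and 2.12 CPM (d4). Its promoter is shown because Nr6a1 binds repeats of the half-site AGGTCA. Pou5f1 has 2 RefSeq windows, and 1 that holds the half-site was chosen. That window (chr17:35505782-35506081, GRCm38.p6, plus strand) holds 1 match, in capitals, that begins 33 bases before the start.
Pou5f1: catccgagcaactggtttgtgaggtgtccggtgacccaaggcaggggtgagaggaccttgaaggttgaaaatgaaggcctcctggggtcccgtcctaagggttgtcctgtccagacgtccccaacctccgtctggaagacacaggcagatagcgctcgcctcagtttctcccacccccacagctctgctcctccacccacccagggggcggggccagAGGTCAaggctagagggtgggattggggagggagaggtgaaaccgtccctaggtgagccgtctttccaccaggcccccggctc
The half-site or its reverse complement TGACCT was in 16.3% of all 32851 windows, in 13% of the genes called higher in Nr6a1-/- cells and in 16.5% of those called lower. Of the 16 pluripotency and epiblast genes with a window 2 held it, Nanog and Pou5f1 (12.5%).

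Tdh, an enzyme of threonine use in ESCs, stood at 47.4, 70.1 and 56.9 CPM at d3 and 7.36, 8.71 and 6.82 CPM at d4 (log2 fold change -2.93, SE 0.19, FDR = 8.11e-15). Nanog stood at 14.5, 14.97 and 11.2 CPM at d3 and 4.33, 6.77 and 5.54 CPM at d4 (log2 fold change -1.28, SE 0.29, FDR = 0.000804). Nodal, the signal that Lefty1 and Lefty2 oppose, stood at 5.22, 6.41 and 10.04 CPM at d3 and 0.433, 1.45 and 0.852 CPM at d4 (log2 fold change -2.96, SE 0.5, FDR = 1.92e-05). All were lower in every d4 library. Apela fell in wildtype cells too (76.3, 58 and 76 CPM at d3 and 17, 30.9 and 15.01 CPM at d4), by less than in Nr6a1-/- cells (-2.16, SE 0.32, FDR = 1.9e-05). So did Tdgf1 (18.8, 13.4 and 20.8 CPM at d3 and 6.97, 13.8 and 3.602 CPM at d4), with a difference of -2.23, SE 0.52, FDR = 0.00646. The wildtype fall of Tdgf1 was lost without d3 or d4 wildtype replicate 3 (FDR = 0.0554 and 0.0958). The difference of Tdgf1 was not called without d4 wildtype replicate 2 (FDR = 0.102), the library with high pluripotency genes.

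Of 15 endoderm and related epithelial genes tested (20 listed) 7 fell and none rose, although the defining factors Sox17 (1.25 to 3.07 CPM) and Gata4 (0.953 to 1.16 CPM) were near the counting limit and not called. The genes that fell were the keratins Krt8 (40.1 ± 3.87 to 11.6 ± 1.24 CPM, log2 -1.78, FDR = 6.35e-10), Krt18 and Krt19, with Cldn4, Trh, Rhox5 and Foxa2. The call of Foxa2 was lost without d3 replicate 1 (FDR = 0.221) or any d4 replicate (FDR = 0.0579 to 0.0748). Genes of epithelial adhesion fell likewise. In the list of cadherins and epithelial to mesenchymal transition 9 of 21 tested (23 listed) were lower and 4 higher, the latter 2 without d3 replicate 1 or d4 replicate 3. Cdh1 (E-cadherin) stood at 113, 95.8 and 118 CPM at d3 and 25.99, 20.3 and 25.6 CPM at d4 (log2 fold change -2.18, SE 0.201, FDR = 9.57e-11). Epcam stood at 276, 295 and 319 CPM at d3 and 68.4, 58.5 and 70.7 CPM at d4 (log2 fold change -2.17, SE 0.19, FDR = 5.22e-11). The tight junction claudin Cldn7 stood at 17.3, 19.2 and 17.1 CPM at d3 and 3.47, 2.903 and 2.13 CPM at d4 (log2 fold change -2.64, SE 0.32, FDR = 3.84e-08), while in wildtype cells it stood at 20.8, 23.02 and 29.6 CPM at d3 and 18.3, 32.6 and 16.8 CPM at d4, a difference of -2.54, SE 0.38, FDR = 1.79e-05. Grhl2, a factor that maintains epithelia, fell from 8.28 ± 2.13 to 2.26 ± 0.604 CPM (log2 -1.86, FDR = 0.00456), as did the splicing factor Esrp1 (11.9 ± 5.31 to 2.84 ± 1.099 CPM, log2 -2.07, FDR = 6.84e-05). Zeb1, a repressor of Cdh1, rose from 11.3 to 30.6 CPM (log2 1.43, FDR = 3.74e-07), and Snai2 rose from 1.298 to 3.87 CPM (log2 1.51, FDR = 0.029). The call of Snai2 was lost without any single library other than d3 replicate 3 (FDR = 0.0501 to 0.143). Cdh2 (N-cadherin) at 65.5 to 73.7 CPM (FDR = 0.374) and Vim at 199.6 to 192 CPM (FDR = 0.713) were not called.

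Among FGF genes several ligands rose and Fgf8 fell, and genes of FGF feedback moved both ways. Of 13 FGF ligands and receptors tested (18 listed) 6 were higher and 1 lower, with a median log2 fold change of 0.48. Fgf15 stood at 4.82, 8.98 and 10.8 CPM at d3 and 55.9, 71.6 and 66.04 CPM at d4 (log2 fold change 2.96, SE 0.22, FDR = 6.01e-13), with a difference from the wildtype change of 1.89, SE 0.39, FDR = 0.0017. Fgf4 stood at 11.6, 15.4 and 17.5 CPM at d3 and 81.9, 84.2 and 107 CPM at d4, against 11.1, 8.29 and 12.4 CPM at d3 and 12.6, 21.3 and 15.01 CPM at d4 in wildtype cells, a difference of 1.97, SE 0.29, FDR = 1.41e-05. Fgf9 went from 0.678 to 12.2 CPM (log2 4.09, FDR = 1.12e-07). The gene that fell was Fgf8, the main FGF ligand of the NMP region, at 88.3, 106 and 94.8 CPM at d3 and 71.04, 52.7 and 78.4 CPM at d4 (log2 -0.51, FDR = 0.00452), a call lost without d4 replicate 2 (FDR = 0.0526). Of 20 FGF feedback genes 7 rose and 2 fell (1 without d3 replicate 2, d4 replicate 1 or d4 replicate 3). Shisa3, an antagonist of FGF and Wnt receptors, stood at 0, 0 and 1.12 CPM at d3 and 13.4, 14.03 and 9.799 CPM at d4 (ratio of pooled counts 30.9 with an exact 95% interval of 10.2 to 153, FDR = 8.07e-08). Spry4 rose from 20.1 to 38.6 CPM (log2 0.94, FDR = 0.000811). Spry2 rose from 179 to 284 CPM (log2 0.66, FDR = 0.0074), a call lost without d3 replicate 1. The immediate early gene Fos rose from 1.497 to 5.13 CPM (log2 1.75, FDR = 0.00599), a call lost without d3 replicate 3 (FDR = 0.06). Dusp6 (127 to 171 CPM, FDR = 0.18) and Etv4 (67.3 to 69.4 CPM, FDR = 0.86) were not called. Dusp6 was called higher with a replicate block (FDR = 0.0245) and with no filter on low counts (FDR = 0.00208).

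Wnt target genes split in both directions, 6 of 17 tested (20 listed) higher and 4 lower. Lef1, the transcriptional effector, stood at 177, 179.6 and 194 CPM at d3 and 351, 373 and 409 CPM at d4 (log2 fold change 1.04, SE 0.098, FDR = 1.48e-10). The inhibitor Nkd2 stood at 4.42, 6.41 and 8.55 CPM at d3 and 33.4, 47.4 and 40.5 CPM at d4 (log2 fold change 2.62, SE 0.21, FDR = 4.32e-12). Axin2, a target in most tissues, stood at 147, 163 and 186 CPM at d3 and 153, 130.1 and 154 CPM at d4 (FDR = 0.21). Sp5 stood at 161, 159.5 and 176 CPM at d3 and 125, 142 and 160.2 CPM at d4 (FDR = 0.078). Neither was called with all libraries, though Sp5 was called lower without d4 replicate 3 (FDR = 0.0183). Dkk1, a secreted Wnt inhibitor, stood at 26.1, 21.8 and 23.4 CPM at d3 and 3.47, 5.32 and 4.26 CPM at d4 (log2 fold change -2.45, SE 0.21, FDR = 2.22e-11). It rose in wildtype cells (23.2, 25.8 and 26 CPM at d3 and 40.5, 32.3 and 36.3 CPM at d4), a genotype difference of -2.98, SE 0.26, FDR = 7.32e-10. Of 9 Wnt ligands tested (19 listed) 2 rose (1 without d3 replicate 2 or d4 replicate 1) and 4 fell. For 4 the change was more positive than in wildtype cells, beside 2.97% of all tested genes. Wnt7a was one of these, with a difference of 6.72, SE 2.001, FDR = 0.0397, but from counts near 0 in 3 of the 4 groups, and it was lost in 10 of 21 alternatives, 8 of them with 1 library left out (FDR = 2.15e-07 to 0.189).

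Among 21 BMP and TGF-beta genes tested (30 listed) 5 rose (3 without d4 replicate 3) and 4 fell. Fst (follistatin), a secreted antagonist of activins and BMPs, stood at 366, 380.1 and 420.3 CPM at d3 and 59.3, 53.7 and 74.6 CPM at d4 (log2 fold change -2.63, SE 0.11, FDR = 1.17e-20). Its log2 fold change was more negative in wildtype cells (190.2, 175 and 172 CPM at d3 and 5.23, 7.46 and 9.31 CPM at d4), a difference of 1.93, SE 0.19, FDR = 8.84e-09. Id1, a BMP target, rose from 15.2 to 38.9 CPM (log2 1.36, FDR = 6.14e-06). Gdf11, the ligand that was not added to this medium, rose from 29.3 to 71.2 CPM (log2 1.27, FDR = 0.000139).

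Genes of growth timing and metabolism also moved. Of 16 heterochronic genes (the Lin28 and let-7 network) 8 rose and 2 fell. Hmga2, a chromatin protein repressed by let-7, stood at 79.9, 80.8 and 94.5 CPM at d3 and 360.4, 524 and 494 CPM at d4 (log2 fold change 2.43, SE 0.14, FDR = 1.9e-16). Lin28a, which blocks let-7, fell from 334 to 262 CPM (log2 -0.35, FDR = 0.00267), and Lin28b did not pass the test (57.2 to 64.6 CPM, FDR = 0.364). Of 19 glycolysis genes tested (22 listed) 12 rose and 2 fell (1 without d4 replicate 2, median log2 fold change 0.54), beside 7 rises and 3 falls in wildtype cells. Of 19 hypoxia response genes tested (20 listed) 12 rose and none fell (median 0.84), beside 5 rises and 2 falls in wildtype cells. Ldha (lactate dehydrogenase) went from 832 ± 112 to 1697 ± 298 CPM (log2 1.03, FDR = 1.89e-11). The aldolase Aldoc went from 5.63 ± 2.04 to 32.7 ± 3.899 CPM (log2 2.51, FDR = 4.03e-09). The 2 that fell were glucose transporters, Slc2a1 (412 to 319 CPM, FDR = 0.00333, lost without d4 replicate 2) and Slc2a3 (338 to 224 CPM, FDR = 0.00027).

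Bnip3, a mitophagy receptor induced in low oxygen, stood at 10.04, 4.28 and 4.84 CPM at d3 and 21.7, 23.7 and 24.3 CPM at d4 (log2 fold change 1.85, SE 0.29, FDR = 5.84e-06). The oxygen sensor Egln3 stood at 11.2, 11.5 and 10.8 CPM at d3 and 42.5, 51.3 and 49.4 CPM at d4 (log2 fold change 2.09, SE 0.24, FDR = 1.31e-08), and at 8.69, 4.14 and 9.6 CPM at d3 and 2.18, 6.08 and 2.702 CPM at d4 in wildtype cells, a difference of 3.04, SE 0.45, FDR = 1.9e-05. Ddit4, an inhibitor of mTOR signalling, stood at 113, 112 and 135 CPM at d3 and 267, 198 and 277 CPM at d4 (log2 fold change 1.04, SE 0.12, FDR = 2.63e-08). It fell in wildtype cells (119, 99.9 and 111 CPM at d3 and 59.3, 53.6 and 53.4 CPM at d4), a difference of 2.04, SE 0.18, FDR = 1.68e-09. These were 2 of the 3 hypoxia response genes whose change was more positive in Nr6a1-/- cells, and none was more negative. The shares over all tested genes were 2.97% and 2.75%.

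Cell cycle genes of S phase and mitosis had medians near 0. The S phase list had 3 of 25 higher and 7 lower, with a median log2 fold change of -0.14. Over all tested genes 13.6% were higher and 12.3% lower. The mitosis list had 7 of 28 higher and 1 lower, with a median of 0.05. Mki67 stood at 87.2 to 87.1 CPM (FDR = 0.987). With 1 library left out the S phase rises ran from 0 (without d4 replicate 3) to 3 and its falls from 3 (without d4 replicate 2) to 7. The mitosis rises were 3 without d3 replicate 1, and its 1 fall became 3 without d3 replicate 3 or d4 replicate 1 and 0 without any other library. Regulators of the entry into the cycle changed as well. Ccnd2 (cyclin D2) stood at 712, 729 and 758 CPM at d3 and 2512, 2275 and 2247 CPM at d4 (log2 fold change 1.68, SE 0.12, FDR = 2.76e-13), and at 654, 702 and 831 CPM at d3 and 991, 906 and 1249.7 CPM at d4 in wildtype cells, a difference of 1.15, SE 0.17, FDR = 1.77e-05. Its relative Ccnd1 fell from 231 ± 0.649 to 136 ± 7.75 CPM (log2 -0.77, FDR = 1.52e-08), and Cdk6, the kinase partner of D cyclins, rose from 132 ± 31.2 to 365 ± 53.7 CPM (log2 1.47, FDR = 4.34e-09). The imprinted inhibitor Cdkn1c stood at 63.8, 76.5 and 60.3 CPM at d3 and 18.6, 28.5 and 28.97 CPM at d4 (log2 fold change -1.396, SE 0.15, FDR = 2.62e-09). It stood at 72.4, 62.6 and 70.8 CPM at d3 and 72.4, 74.6 and 63.6 CPM at d4 in wildtype cells, a difference of -1.43, SE 0.19, FDR = 4.65e-06.

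Targets of p53 were lower at d4, 12 of 22 against 2 higher (1 without d3 replicate 1 or 2 or d4 replicate 2 or 3), with a median log2 fold change of -0.41, and 12 fell in wildtype cells as well. Cdkn1a (p21) went from 419 ± 24.4 to 221 ± 31.4 CPM (log2 -0.92, FDR = 7.1e-10) and Trp53inp1 from 72.2 ± 8.28 to 30.2 ± 3.57 CPM (log2 -1.26, FDR = 4.1e-09). Feeder fibroblast genes fell too, 4 of 6 tested (10 listed). Their markers summed to 61.4 to 74.8 CPM at d3 and 17.04 to 22.96 CPM at d4, led by Col1a2 (44.5 ± 10.8 to 7.52 ± 1.49 CPM, log2 -2.54, FDR = 7.87e-10), and Tagln went from 27.7 ± 3.23 to 3.52 ± 1.13 CPM (log2 -2.94, FDR = 4.07e-10). The part of such cells in the falls above was not tested.

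**Figure D5:**
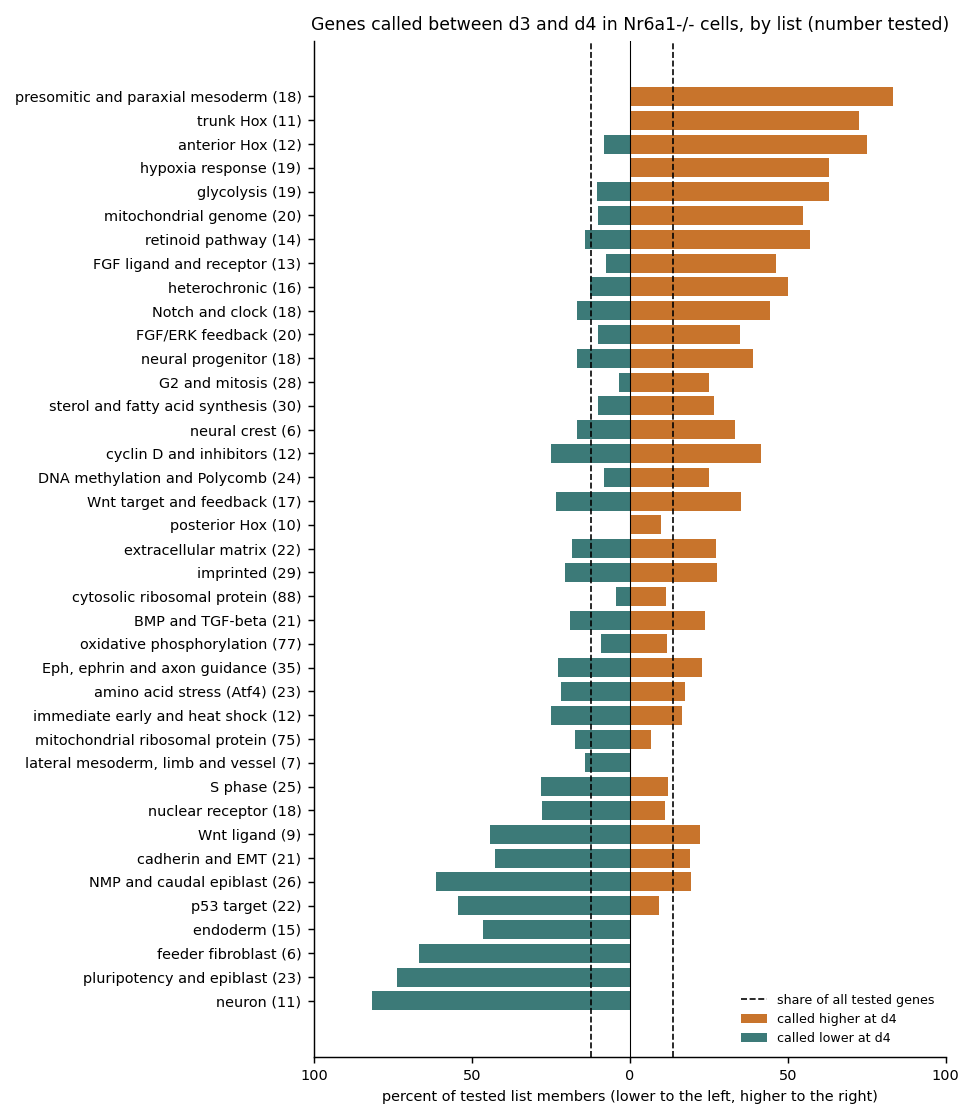
Percent of the tested genes of each of the 39 lists called higher (right) and lower (left) at d4 in Nr6a1-/- cells, with the share among all tested genes, 13.6% and 12.3%, as dashed lines. The list of presomitic and paraxial mesoderm (15 of 18) has the highest net share of rises and the list of neuron genes (9 of 11) that of falls.

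Genotype differences were named by their size, the 6 largest on each side. Rhbg, an ammonium transporter, stood at 0.803, 0.855 and 0.372 CPM at d3 and 18.2, 13.1 and 16.6 CPM at d4 in Nr6a1-/- cells and 0.965, 0.4604 and 0.8 CPM at d3 and 0, 0 and 0 CPM at d4 in wildtype cells, a difference of 8.41, SE 1.58, FDR = 0.000818. This size is a fitted value that depends on the prior count, since wildtype cells had 0 counts at d4. L1cam, a neural adhesion molecule, stood at 2.01, 0.428 and 1.86 CPM at d3 and 10.8, 9.68 and 11.5 CPM at d4 and in wildtype cells at 3.38, 3.22 and 4.4 CPM at d3 and 0, 0.829 and 0.901 CPM at d4 (5.25, SE 0.66, FDR = 1.11e-06). Ntm (neurotrimin), another neural adhesion molecule, stood at 1.61, 0.428 and 1.49 CPM at d3 and 25.1, 17.4 and 23.01 CPM at d4 and in wildtype cells at 2.896, 1.84 and 2 CPM at d3 and 2.62, 0.829 and 1.501 CPM at d4 (4.67, SE 0.75, FDR = 7.55e-05). All 3 were at most 4.40 CPM at d3 in either genotype, and in wildtype cells L1cam fell while Ntm was not called. The wildtype change of Rhbg (FDR = 0.0437) rested on 5 counts at d3 and was not called without any single wildtype library (FDR = 0.0525 to 0.107). Meis1 rose in both, from 3.86, 6.91 and 4.8 to 16.6, 14.9 and 11.4 CPM in wildtype cells (a call lost with thinned counts, FDR = 0.0733), with a difference of 4.37, SE 0.67, FDR = 3.47e-05. Mgll, a monoacylglycerol lipase, rose from 0.677 to 10.1 CPM and was not called in wildtype cells (1.88 to 1.65 CPM), a difference of 4.16, SE 0.83, FDR = 0.00134. Wnt7a, given above, was the sixth.

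On the other side Sema3c, a secreted guidance cue, stood at 2.81, 1.28 and 3.35 CPM at d3 and 1.299, 0 and 0.852 CPM at d4 in Nr6a1-/- cells (FDR = 0.083) and rose in wildtype cells (1.93, 2.302 and 2.4 CPM at d3 and 9.15, 8.84 and 15.6 CPM at d4), a difference of -4.01, SE 0.84, FDR = 0.00208. H19, an imprinted long non-coding RNA, stood at 2.01, 1.28 and 0.744 CPM at d3 and 1.73, 0.968 and 2.13 CPM at d4 and in wildtype cells at 12.6, 11.97 and 10 CPM at d3 and 114, 102 and 114 CPM at d4 (-2.97, SE 0.63, FDR = 0.00244), a difference lost without d3 Nr6a1-/- replicate 1 (FDR = 3.51e-06 to 0.132 over all alternatives). Flt1, a VEGF receptor, fell from 3.604 to 0.912 CPM and rose in wildtype cells from 8.36 to 14.1 CPM (-2.72, SE 0.51, FDR = 0.000708). The wildtype rise was lost without d3 wildtype replicate 3 (FDR = 0.0652), and with counts thinned to the smallest total both it (FDR = 0.325) and the difference (FDR = 0.0549) were lost. Dkk1 is given above. The last 2, the kinase Pim2 and the ESC protein L1td1, rested on d4 wildtype replicate 2. Pim2 fell from 40.9 to 7.22 CPM in Nr6a1-/- cells and stood at 17.4, 18.4 and 18 CPM at d3 and 6.103, 106 and 11.7 CPM at d4 in wildtype cells, a difference of -3.78, SE 0.76, FDR = 0.00137, which was -1.56 (FDR = 0.011) without that library. L1td1 fell from 47.3 to 7.27 CPM and stood at 43.4, 34.5 and 38.8 CPM at d3 and 24.8, 105 and 21.9 CPM at d4 in wildtype cells, a difference of -3.13, SE 0.53, FDR = 0.00017, which was -1.97 (FDR = 2.92e-05) without it. Sparcl1, one of the largest rises, had a difference of 3.26, SE 0.77, FDR = 0.00671, lost without d3 wildtype replicate 3 (FDR = 0.059).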

How the data were processed

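Sequencing covered 3′ ends of poly(A)-primed cDNA tagged with an index and a molecular identifier, and the authors aligned reads with STAR to mm10, per the submitters' processing notes. The counting tool, annotation, use of strand and collapse of identifiers are not given in the sources used here, so overlapping and antisense genes are uncertain. The authors deposited 1 table of raw counts, a whole number for each gene in each library. The authors also deposited 5 tables of their genotype comparisons (CPM, log2 fold changes, p-values), which were not used. All 30 libraries matched a column by name and 0 columns were left over.

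A gene was tested where 2 libraries of the same group exceeded both 2 CPM and 10 counts (12149 of 54134). After TMM scaling, 1 model of 10 groups with 20 residual degrees of freedom was fitted (edgeR 4.0.16, R 4.3.3). Contrasts were tested 2-sided with glmQLFit and glmQLFTest and called at a Benjamini-Hochberg FDR below 0.05. SE is the log2 fold change over the square root of F. In counts simulated for 11070 genes, 196 were changed at d4 in Nr6a1-/- cells, each with a d3 mean of at least 2 CPM. Genes nearer 0 at d3, such as Meox1, were thus not covered. Of the changes from d3 to d4 in Nr6a1-/- cells, 71.3% of 2-fold and 94.3% of 4-fold ones were recovered, with 1.84% of calls false. For genotype differences these shares were 52.8%, 81.8% and 5.84%.

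Genes were named by size of change, the first 12 each way that were called, averaged 10 CPM or more on the higher day and did not overlap between days, and the 6 largest genotype differences each way, with genes of 39 lists. Some genes are not reported here and were left out of the lists. The members and lists were chosen with earlier results of these data known. Positions are from GENCODE mouse release 21 (GRCm38), which matched 99% of tested genes by symbol. Alternatives were RLE or no scaling factors, no filter, only the libraries compared, a replicate block, DESeq2 1.42.0, thinned counts and each library left out, and, added after the data were seen, limma-trend (limma 3.58.1) and the table without small RNA genes.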

Additional observations from a re-analysis of the deposited data

Results flagged for a closer look

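Named genes whose change from d3 to d4 differed between the genotypes, by the test of the difference itself in edgeR, are given here with the log2 difference (change in Nr6a1-/- cells minus change in wildtype cells). On the positive side, the retinoid genes had differences of Aldh1a2 3.61 (FDR = 2.94e-09), Crabp1 2.12 (FDR = 6.76e-14), Dhrs3 2.39 (FDR = 1.63e-08) and Stra6 2.03 (FDR = 1.76e-07). The ligands and antagonists were Wnt7a 6.72 (FDR = 0.0397), Fgf4 1.97 (FDR = 1.41e-05), Fgf15 1.89 (FDR = 0.0017) and Fst 1.93 (FDR = 8.84e-09). Transcription factors were Meis1 4.37 (FDR = 3.47e-05), Nkx1-2 1.68 (FDR = 4.72e-06) and Mixl1 1.93 (FDR = 9.51e-06). Membrane, enzyme and binding proteins were Rhbg 8.41 (FDR = 0.000818), L1cam 5.25 (FDR = 1.11e-06), Ntm 4.67 (FDR = 7.55e-05), Mgll 4.16 (FDR = 0.00134), Fabp7 3.34 (FDR = 1.98e-08) and Sparcl1 3.26 (FDR = 0.00671). Genes of the cell cycle and the response to low oxygen were Ddit4 2.04 (FDR = 1.68e-09), Egln3 3.04 (FDR = 1.9e-05) and Ccnd2 1.15 (FDR = 1.77e-05).

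On the negative side stood the Hox genes Hoxb9 -1.58 (FDR = 1.27e-05) and Hoxb8 -1.12 (FDR = 0.012), the Wnt antagonist Dkk1 -2.98 (FDR = 7.32e-10) and the cell cycle inhibitor Cdkn1c -1.43 (FDR = 4.65e-06). Pluripotency and epithelial genes were Pim2 -3.78 (FDR = 0.00137), L1td1 -3.13 (FDR = 0.00017), Apela -2.16 (FDR = 1.9e-05), Tdgf1 -2.23 (FDR = 0.00646) and Cldn7 -2.54 (FDR = 1.79e-05). The others were Sema3c -4.01 (FDR = 0.00208), H19 -2.97 (FDR = 0.00244), Flt1 -2.72 (FDR = 0.000708) and Ina -2.04 (FDR = 0.000773). Wildtype d4 replicate 2 held the highest wildtype d4 value of Pim2, L1td1, Apela, Tdgf1, Ina and Cldn7, and its part in these differences is given by their values without it, which were -1.56, -1.97, -1.75, -1.51, -1.32 and -2.16.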

How the results depend on the processing

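The count of genes called between d3 and d4 in Nr6a1-/- cells ran from 2233 to 3190 over the alternatives tried, and from 2429 to 3190 with 1 library left out. The wildtype count ran from 1891 to 2324 with 1 library left out and was 1659 with counts thinned to the smallest total. The count of genotype differences was 440 with only the compared libraries fitted, 417 with thinned counts, and 443 to 1157 with 1 library left out. No change of a named gene in Nr6a1-/- cells reversed where it was called as reported or in the alternative. Some that were called in neither changed sign, such as Hoxb9 (log2 fold change -0.23 to 0.03 over the alternatives). Without d4 wildtype replicate 2 the wildtype changes of Pim2 and L1td1 reversed: with 1 library left out they ran from -0.93 to 1.77 and from -0.73 to 0.83. The causes were not tested beyond what each alternative leaves out.

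Replicate numbers are shared across groups in the labels. In replicates 2 and 3, but not in replicate 1, the d3 and d4 Nr6a1-/- libraries also carry the same index. An index shared in this way places the libraries in different pools, if the labels give it rightly. Deviations of same-numbered d3 and d4 Nr6a1-/- libraries correlated at 0.081, 0.024 and 0.134, and each d4 library correlated best with its own number, a hint from the data only. Since 2 of 3 values are under 0.1, the numbers were not taken as pairs. With a replicate block the counts were 2694 for Nr6a1-/- cells, 2747 for wildtype cells and 667 for the difference, and among named genes in Nr6a1-/- cells Wnt3a and Dusp6 gained a call while Fgf17 and Rarg lost theirs. The genotype difference of Wnt7a was lost (FDR = 0.0536).

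Among the lists the count that moved furthest with a single library was that of cytosolic ribosomal protein genes, of which 48 of 88 were called lower without d4 Nr6a1-/- replicate 1 against 4 with it. A gene could be tested through any of the 10 groups, so some tested genes had few counts at both days, and Msgn1, with 26 counts over the 3 d3 libraries, was not tested.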

Other observations

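Small RNA genes rose from d3 to d4 in both genotypes, but less in the d4 libraries with Gdf11. Per library total, all small nuclear RNA genes made up 51.7, 52.8 and 63.0 CPM at d3 in Nr6a1-/- cells. They made up 385, 253 and 281 CPM at d4, and 110, 108 and 126 CPM at d4 with Gdf11. Wildtype cells had 64.8, 71.7 and 69.8 CPM at d3, 162, 137 and 200 at d4, and 88.4, 74.0 and 88.5 with Gdf11. The d4 libraries with and without Gdf11 share an index in every wildtype replicate and in Nr6a1-/- replicate 1. If the labelled indices are right, these were in different pools, so Gdf11 and pool cannot be told apart there. Of 14 tested small nuclear RNA genes 11 rose and 1 fell in Nr6a1-/- cells, with a median log2 fold change of 4.42, beside 9 rises and a median of 2.67 in wildtype cells. Such genes could pass the filter on low counts through 1 group where they were high. Gm24018, Gm25360, Gm25541 and Gm22063 had 0, 0, 1 and 3 counts over the d3 Nr6a1-/- libraries. The counts of rises and the medians are thus partly set by the filter. The summed level of the 14 was 14.5 to 21.6 CPM at d3 and 101 to 188 CPM at d4 in Nr6a1-/- cells, highest in d4 replicate 1. Gm25541 stood at 0, 0 and 0.372 CPM at d3 and 32.1, 14.5 and 22.2 CPM at d4. Gm22063 stood at 0.402, 0.428 and 0.372 CPM at d3 and 33.8, 15.96 and 20.02 CPM at d4. Gm24018 had 0 counts at d3 and 22.1, 8.71 and 11.9 CPM at d4, at least 36.2-fold higher, and Gm25360 had 0 counts at d3 and 15.2, 7.74 and 8.52 CPM at d4, at least 26.5-fold higher. Small nucleolar RNA genes rose likewise, 13 of 26 with none lower (median 1.37). These RNAs mostly lack the poly(A) tail on which the libraries were primed, and many small nuclear RNA genes are near-identical copies, so their counts are uncertain.

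The mitochondrial genome list had 11 of 20 genes higher and 2 lower in Nr6a1-/- cells (7 higher and 4 lower without d4 replicate 1, 7 higher without d3 replicate 3, none lower without d3 replicate 2 or d4 replicate 3), and 13 higher and none lower in wildtype cells. The large ribosomal RNA mt-Rnr2 stood at 20858, 19692 and 23046 CPM at d3 and 33478, 27287 and 34310.1 CPM at d4 (log2 fold change 0.58, SE 0.16, FDR = 0.0073). Of 75 mitochondrial ribosomal protein genes 5 rose and 13 fell, of 77 oxidative phosphorylation genes 9 rose and 7 fell, and of 88 cytosolic ribosomal protein genes 10 rose and 4 fell. These counts turned on single libraries. With 1 library left out the rises ran from 1 to 4, from 5 to 13 and from 3 to 14. The falls ran from 3 to 20, from 1 to 20 and from 1 to 48, highest without d4 replicate 1 in each list.

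Among 35 Eph, ephrin and axon guidance genes 8 rose (5 without d3 replicate 3 or d4 replicate 2) and 8 fell. Over all tested genes 13.6% rose and 12.3% fell, and several of the lists that follow lie near these shares. Cxcr4, the chemokine receptor, rose from 1.07 ± 0.9299 to 17.02 ± 2.11 CPM (log2 3.93, FDR = 1.46e-08) and Ntn1 (netrin 1) fell from 17.8 ± 1.37 to 4.03 ± 0.488 CPM (log2 -2.13, FDR = 1.59e-06). Of 29 imprinted genes 8 rose and 6 fell, with Peg10 going from 100.4 ± 18.1 to 38.05 ± 13.1 CPM (log2 -1.39, FDR = 1.51e-07). The extracellular matrix list had 6 of 22 higher and 4 lower, and the laminin Lama1 went from 9.85 ± 3.45 to 34.2 ± 5.48 CPM (log2 1.78, FDR = 6.79e-09). Sterol and fatty acid synthesis had 8 of 30 higher and 3 lower (1 without d3 replicate 2), and D cyclins with their inhibitors 5 of 12 and 3. DNA methylation and Polycomb genes had 6 of 24 higher (3 without d3 replicate 2) and 2 lower (1 without any single library other than d3 replicate 2). Atf4 targets had 4 of 23 higher and 5 lower (3 without d4 replicate 1), nuclear receptors 2 of 18 and 5, and immediate early and heat shock genes 2 of 12 (1 without d3 replicate 3) and 3. Neural crest genes had 2 of 6 higher (1 without d3 replicate 1 or 2 or any d4 library) and 1 lower, and lateral mesoderm genes 0 of 7 and 1. With 1 library left out the latter counts ran from 0 to 1 and from 0 to 2.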
